A study of Mus musculus with 9 samples.

Results

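The 10 genes described here encode the core of the circadian clock and its most direct outputs, read in microglia sorted from the visual cortex of adolescent mice. They were chosen by symbol from a count table of 45664 genes: the activators Arntl (the gene of BMAL1) and Clock, the repressors Per1, Per2, Per3, Cry1 and Cry2, the receptors Nr1d1 and Nr1d2 (REV-ERBα and REV-ERBβ), and the output factor Dbp. All 10 were in the table and all 10 were among the 13067 genes that passed the filter on low counts.

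The study asked whether ethanol given to pups leaves a mark on microglia in adolescence, and sequenced 9 male C57BL/6 mice, 1 library for each mouse. Ethanol mice (n = 4) had received 3.6 g of ethanol per kg body weight a day, split into 2 injections of 1.8 g per kg at 20% v/v, on days 4 to 9 after birth, and saline mice (n = 5) had received saline on the same schedule. Saline 1 to 5 were killed on days 36, 30, 35, 29 and 30, and ethanol 1 to 4 on days 35, 35, 30 and 30, so each treatment had mice of an older cohort (day 35 or 36, 4 mice) and a younger cohort (day 29 or 30, 5 mice). Lights came on at 6 am, and every mouse was killed between 2.5 and 3.5 h later, in the morning, and each level given here is a level at that time of day. The mice came from 3 litters, and which litter a mouse belonged to was not stated. With 1 library for each mouse, p-values measure the spread between these libraries, in which mouse, sort and library preparation cannot be told apart.

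The clock is a feedback loop of transcription. The proteins of Arntl and Clock bind E-boxes and drive the Per, Cry, Nr1d and Dbp genes; PER and CRY proteins then block this activity, and the REV-ERB receptors repress Arntl at sites that they share with the ROR receptors. The protein of Dbp activates genes with D-boxes, Per genes among them. In most mouse tissues Arntl is low when the Dbp and Nr1d genes are high. Per1 is also induced directly by glucocorticoids and by other acute signals.

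Promoter stretches of 6 of the genes are shown because they hold motifs that clock factors are known to bind. They are taken from RefSeq (GRCm38.p6), in which 9 of the 10 genes have windows from 250 bases before to 50 after a start site. Per2 was not among them. Each sequence runs 5′ to 3′ on the strand of the gene, with the motif in capitals. Per1 (chr11:69098753-69098818, plus strand) and Cry1 (chr10:85185079-85185163, minus strand) hold an E-box, CACGTG. Cry1, Cry2 (chr2:92434200-92434265, minus strand) and Nr1d1 (chr11:98775378-98775435, minus strand) hold the variant E′-box CACGTT, read here as AACGTG from the other strand. Per3 (chr4:151044786-151044900, minus strand) holds the D-box TTATGTAA at 2 places. Arntl (chr7:113207528-113207557, plus strand) holds the REV-ERB and ROR element in its first exon.
Per1: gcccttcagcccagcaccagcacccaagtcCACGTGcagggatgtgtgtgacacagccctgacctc
Cry1: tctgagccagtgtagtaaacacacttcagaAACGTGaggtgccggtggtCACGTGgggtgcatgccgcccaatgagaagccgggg
Cry2: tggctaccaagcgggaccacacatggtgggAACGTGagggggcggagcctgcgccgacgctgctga
Nr1d1: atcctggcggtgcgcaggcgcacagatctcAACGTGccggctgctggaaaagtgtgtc
Per3: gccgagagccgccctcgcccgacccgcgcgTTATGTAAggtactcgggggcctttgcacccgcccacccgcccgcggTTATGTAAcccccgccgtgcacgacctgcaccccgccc
Arntl: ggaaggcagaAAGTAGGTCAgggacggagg
All motifs were searched on both strands, the D-box as TTATGTAA or TTACGTAA. Of the 32851 windows of the same length in the table, 7.15% held the E-box, 4.68% the E′-box, 1.06% the D-box and 0.219% the REV-ERB and ROR element. By gene, 8.09% of the 27025 genes in the table held the E-box and 5.44% the E′-box, against 2 and 3 of the 9 clock genes. The windows of Clock, Nr1d2 and Dbp held none of the 4 motifs searched. No motifs overlap each other in these stretches. A match or its absence describes the letters of the window and says nothing of binding in microglia.

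Library totals ranged from 12816198 to 28859244 counts. The level of a gene is its CPM, the count rescaled so that library sizes match (trimmed mean of M values). The markers of microglia summed to 50596 to 59252 CPM over 8 of 8 listed genes, in saline and ethanol mice alike. Saline 1 stood apart by low neuronal (2.46 CPM against 15.2 to 43.1 in the other libraries) and astrocytic marker sums (4.03 CPM against 64.0 to 190). Of the 10 clock genes, saline 1 had the highest Dbp and Per2 and the lowest Arntl of all mice and lay within the range of the others for the remaining 7. Ethanol 2 and saline 1 were each set against the mean log2 level of the libraries other than this pair. In ethanol 2, 647 of 8477 genes with a mean of at least 10 CPM (7.63%) lay more than 2-fold below that mean. In saline 1, 37 genes (0.436%) did. Per1, Per3, Cry2 and Clock had their lowest level of all mice in ethanol 2. These are bulk samples, in which fewer cells that express a gene and less RNA per cell cannot be told apart.

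The activators were expressed in every mouse. Clock, whose protein is the DNA-binding partner of BMAL1, stood at 52.1, 71.4, 69.4, 71.4 and 65.1 CPM in saline 1 to 5 and at 78.6, 45.8, 57.5 and 65.7 CPM in ethanol 1 to 4. Its highest and lowest values were both in ethanol mice, and the treatments overlapped. Arntl, the one core clock gene whose loss alone stops the rhythm, stood at 17.6, 19.4, 27.1, 27.4 and 18.8 CPM in saline mice and at 24.6, 21.5, 18.6 and 18.3 CPM in ethanol mice. The 4 highest levels of Arntl were those of saline 3, saline 4, ethanol 1 and ethanol 2 (21.5 to 27.4 CPM). The other 5 mice had 17.6 to 19.4 CPM, and both treatments were among the 4 and among the 5. Levels within the higher 4 lay further apart than the 4 and the 5 did, so no clear gap parted them.

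Among the repressors, Per1 varied most. It stood at 12.7, 8.96, 67.6, 40.2 and 33.9 CPM in saline 1 to 5 and at 48.3, 5.80, 15.6 and 24.1 CPM in ethanol 1 to 4. That is an 11.6-fold range, from 140 counts in ethanol 2 to 1377 counts in saline 3. High and low mice were found in both treatments. Per2, whose protein is the limiting partner of the repressor complex in many tissues, stood at 9.52, 6.86, 6.43, 4.53 and 7.91 CPM in saline mice and at 5.08, 4.97, 6.99 and 9.08 CPM in ethanol mice, from 64 to 199 counts. Per3, which is not needed for the central clock but cycles strongly in peripheral tissues, stood at 22.2, 26.9, 27.0, 14.04 and 15.9 CPM in saline mice and at 12.8, 12.8, 29.7 and 29.1 CPM in ethanol mice. The 4 ethanol mice thus divided into a low and a high pair for Per3, with the older mice low and the younger mice high, while the saline mice did not divide by age.

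The cryptochromes, the direct inhibitors of the CLOCK and BMAL1 pair, varied less. Cry1 stood at 16.8, 12.99, 19.7, 19.3 and 15.9 CPM in saline mice and at 15.7, 20.0, 9.39 and 14.7 CPM in ethanol mice. Cry2 stood at 16.1, 19.9, 23.0, 20.0 and 17.7 CPM in saline mice and at 15.9, 13.2, 20.6 and 19.4 CPM in ethanol mice. Both overlapped between treatments, and ethanol 2 had the highest Cry1 and the lowest Cry2 of the 9 mice.

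The REV-ERB receptors, heme-binding nuclear receptors that repress Arntl and inflammatory genes in macrophages, differed widely in level. Nr1d2 stood at 84.7, 84.7, 106.9, 77.7 and 85.7 CPM in saline mice and at 97.2, 78.3, 129.5 and 115.0 CPM in ethanol mice. Nr1d1 stood at 5.32, 6.96, 5.40, 3.76 and 5.12 CPM in saline mice and at 3.73, 4.47, 9.85 and 11.2 CPM in ethanol mice, from 47 to 227 counts. Ethanol 3 and ethanol 4, the younger ethanol mice, had the highest level of both receptors among the 9 mice. The output factor Dbp stood at 11.8, 9.99, 9.96, 7.68 and 7.82 CPM in saline mice and at 6.50, 7.33, 9.91 and 11.6 CPM in ethanol mice. Its 2 lowest values were those of the older ethanol mice.

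Exons of Nr1d1 share 263 bases (8.55% of its exonic bases) with Thra on the other strand, and exons of Dbp share 539 bases (18.0%) with Sphk2 on the other strand. Cry2 and Arntl share 295 and 33 bases with noncoding genes of the other strand (GENCODE, GRCm38). With strand use in counting not given in the sources used here, reads from these stretches cannot be assigned to one gene of the pair.

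**Figure D1:**
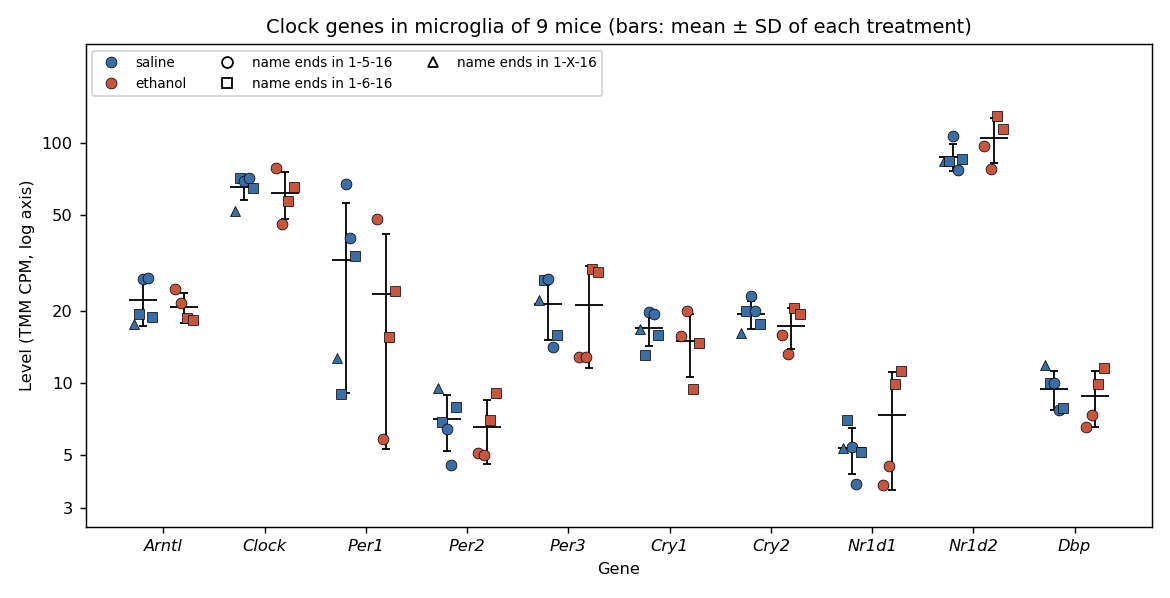
Level of each clock gene (CPM, log axis) in the 9 mice, with saline in blue, ethanol in red, symbols by the ending of the library name, and bars for the mean ± SD of each treatment. Per1 spans 5.80 to 67.6 CPM within the 2 treatments, whereas Clock spans 45.8 to 78.6 CPM and Arntl splits by symbol rather than by colour.

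Levels can be compared between genes only per length, and are given here as CPM per kb of exonic bases. On this scale Nr1d2 was the highest clock gene at 17.7 ± 3.34 CPM per kb (SD, n = 9), above Per1 at 5.07 ± 3.67. It was above Per1 in 9 of 9 mice, by a median of 2.31 on the log2 scale. Per1, Cry1 (4.81) and Clock (4.67 CPM per kb) followed and did not differ beyond their spread. Clock was above Dbp (3.07 CPM per kb) in 8 of 9 mice. Dbp, Cry2 (2.91), Arntl (2.85), Per3 (2.20) and Nr1d1 (2.02 CPM per kb) formed an order in which no neighbours differed beyond their spread. Per2 was the lowest at 1.16 ± 0.305 CPM per kb, below Nr1d1 in 9 of 9 mice. The steps from Nr1d2 to Per1, from Clock to Dbp and from Nr1d1 to Per2 passed an exact two-sided sign-flip permutation test over the 9 mice (adjusted p = 0.0176, 0.0234 and 0.0176 over 9 neighbouring pairs). The other 6 steps did not (adjusted p from 0.237 to 0.867). The order depends on the length used, which the test takes as fixed. Arntl has 7523 exonic bases but a longest transcript of 3995, whereas Cry1 has 3340 and 3026. Levels per length of transcript were not compared.

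The spread between mice was measured as the SD of log2(CPM + 1) around the treatment means. For Per1 it was 1.17, larger than that of 99.8% of the 13067 genes tested and of 99.8% of the 4123 genes within 2-fold of its level. Per3 (SD 0.53) and Nr1d1 (SD 0.49) also varied widely, above 96.7% and 89.4% of genes of like level. Per2 (0.35), Cry1 (0.33), Dbp (0.29), Arntl (0.26), Clock (0.25) and Nr1d2 (0.24) came next, and Cry2 (0.23) lay above 64.2% of genes of like level. The coefficient of variation beyond counting error was 0.646 for Per1, 0.339 for Nr1d1 and 0.323 for Per3, against 0.161 for Nr1d2 and a common value of 0.208 over all genes. Leaving out each mouse in turn, the SD of Per1 ranged from 1.05 to 1.26, that of Per3 from 0.50 to 0.57 and that of Nr1d1 from 0.42 to 0.53. Transcripts of Per1 have a GC content of 59.4%, above 94.9% of genes, and with a trend of GC content and length removed from each library its SD was 1.05.

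**Figure D2:**
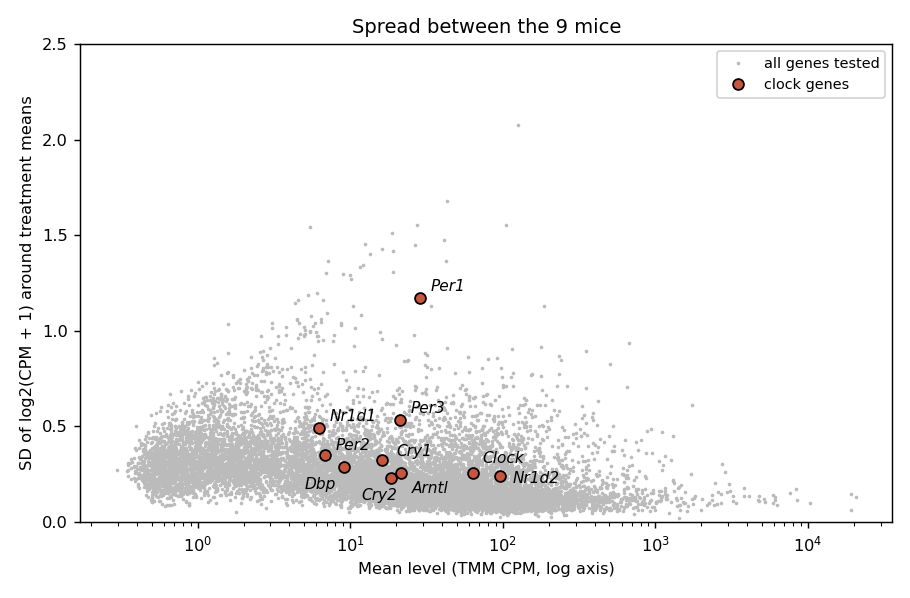
SD of log2(CPM + 1) around the treatment means against the mean level (CPM, log axis), with each grey point 1 of 13067 genes tested and the 10 clock genes in red. Per1 (SD 1.17) lies above nearly all genes of its level, Per3 and Nr1d1 lie in the upper part of the cloud, and the other 7 lie at SDs of 0.23 to 0.35.

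The Per genes did not all move together over the 9 mice. Pearson's r was 0.66 for Per2 with Per3, -0.14 for Per1 with Per2 and -0.08 for Per1 with Per3. Per3 was high where Dbp and Nr1d1 were high, Per2 was high where Dbp was high and Arntl low, and the 3 mice with the highest Per1 were the 3 with the highest Arntl. All correlations are of log2(CPM + 1) over the 9 mice, with exact two-sided permutation tests over all pairings and adjustment over the 45 pairs of the 10 genes. By Pearson's r 0 of 45 pairs passed the adjusted threshold of 0.05 and 9 passed unadjusted, and by Spearman's rho 2 of 45 passed adjusted. The share of pairs among all genes that pass unadjusted was not computed. Of all genes tested, 0.145% had an r with Per3 as high as that of Dbp, and 0.321% as high as that of Nr1d1. With Per2, 0.651% were as high as Dbp and 1.27% as low as Arntl. With Per1, 11.3% were as high as Arntl and 5.08% as high as Clock.

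Per3 and Nr1d1 had an r of 0.85 (exact permutation p = 0.00199, adjusted p = 0.0897) and a rho of 0.92 (exact permutation p = 0.00131, adjusted p = 0.0295). Without ethanol 3 and ethanol 4, the mice farthest from the median of Nr1d1, r was 0.85. Per3 and Dbp had an r of 0.88 (exact permutation p = 0.00644, adjusted p = 0.145) and a rho of 0.70 (adjusted p = 0.278). Without ethanol 1 and ethanol 2, farthest from the median of Dbp, r was 0.78. Leaving out single mice kept r between 0.82 and 0.92 for Per3 with Nr1d1 and between 0.85 and 0.95 for Per3 with Dbp. Per3, Nr1d1 and Dbp each had their 3 lowest levels in saline 4, ethanol 1 and ethanol 2, and all were high in ethanol 4.

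Per2 and Dbp had an r of 0.81 (exact permutation p = 0.0120, adjusted p = 0.174) and a rho of 0.78 (adjusted p = 0.241). Without ethanol 1 and ethanol 2, r was 0.71. Per2 and Nr1d1 had an r of 0.65 (exact permutation p = 0.0616, adjusted p = 0.215) and a rho of 0.63 (adjusted p = 0.363), with an r of 0.66 when ethanol 3 and ethanol 4 were left out. Per2 and Arntl were opposed, with an r of -0.79 (exact permutation p = 0.0155, adjusted p = 0.174) and a rho of -0.92 (exact permutation p = 0.00131, adjusted p = 0.0295). Without saline 3 and saline 4, the mice farthest from the median of Arntl, r was -0.89.

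Per1 and Arntl had an r of 0.61 (exact permutation p = 0.0871, adjusted p = 0.261) and a rho of 0.52 (adjusted p = 0.400), and without saline 3 and saline 4 an r of 0.26. The sign was opposite to that of Per2 with Arntl. Per1 was weakly related to Nr1d1 (r -0.25, rho -0.27, exact permutation p = 0.508 for r, adjusted p = 0.715) and to Dbp (r -0.21, rho -0.25, exact permutation p = 0.581 for r, adjusted p = 0.737), and without the pairs of mice farthest from the median of each the r was -0.39 and -0.46. Per3 and Arntl had an r of -0.42 and a rho of -0.47 (exact permutation p = 0.238 for r, adjusted p = 0.449), and without saline 3 and saline 4 an r of -0.74. With 9 mice, a p that misses the threshold does not show that the genes vary independently.

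The library names in the labels end in 1-5-16 (saline 3, saline 4, ethanol 1, ethanol 2), in 1-6-16 (saline 2, saline 5, ethanol 3, ethanol 4) or in 1-X-16 (saline 1). The labels do not say what the endings stand for. All 4 mice ending in 1-6-16 were of the younger cohort, and 3 of the 4 ending in 1-5-16 of the older, so endings and age cohorts nearly coincide. Within endings (8 mice, ending means removed), r was 0.78 for Per3 with Nr1d1, 0.93 for Per3 with Dbp, 0.55 for Per2 with Dbp, 0.45 for Per2 with Nr1d1 and 0.70 for Per1 with Arntl. For Per2 with Arntl it was 0.07, so that relation did not hold within endings, and for Per3 with Arntl it was 0.39. For Per1 it was -0.07 with Nr1d1 and 0.11 with Dbp. Among the Per genes, r within endings was 0.46 for Per2 with Per3, 0.49 for Per1 with Per2 and 0.19 for Per1 with Per3. In exact permutation tests within endings, unadjusted p was 0.0174 for Per3 with Nr1d1 and also for Per3 with Dbp. It was 0.215 for Per2 with Dbp, 0.306 for Per2 with Nr1d1 and 0.193 for Per1 with Arntl. By adjusted p 0 of 45 pairs passed within endings, and 4 passed unadjusted.

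**Figure D3:**
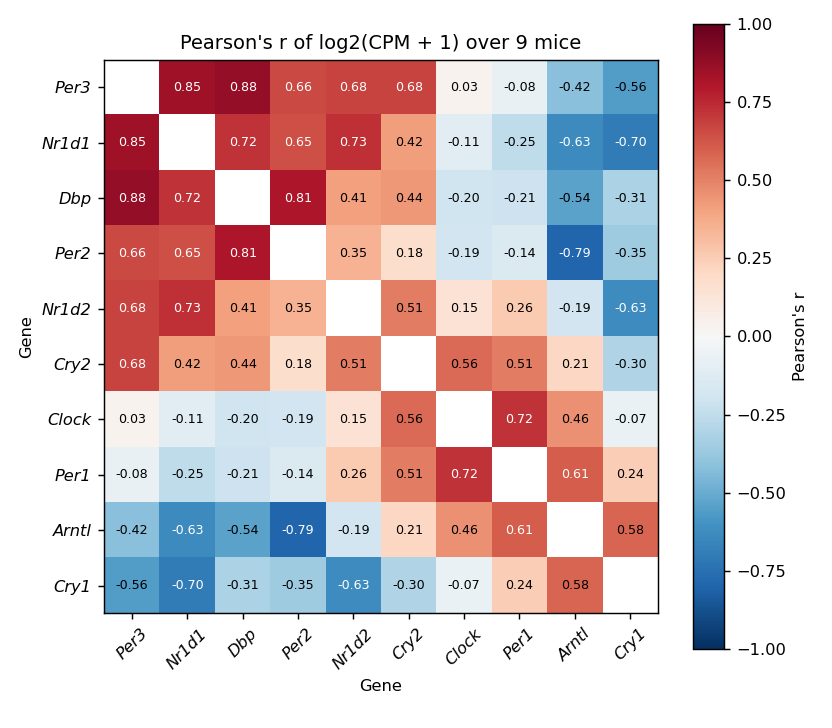
Pearson's r of log2(CPM + 1) over the 9 mice for the 45 pairs of clock genes, from blue (negative) to red (positive). Per3, Nr1d1, Dbp and Per2 form a red block (r from 0.65 to 0.88), Arntl is opposed to Per2 (r -0.79), and Per1 sits with Clock (r 0.72) and Arntl (r 0.61). For Per1, r was 0.38 with Clock without ethanol 2 and saline 1, and 0.26 with Arntl without saline 3 and saline 4. Of all genes tested, 5.08% had an r with Per1 as high as that of Clock and 11.3% as high as that of Arntl.

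**Figure D4:**
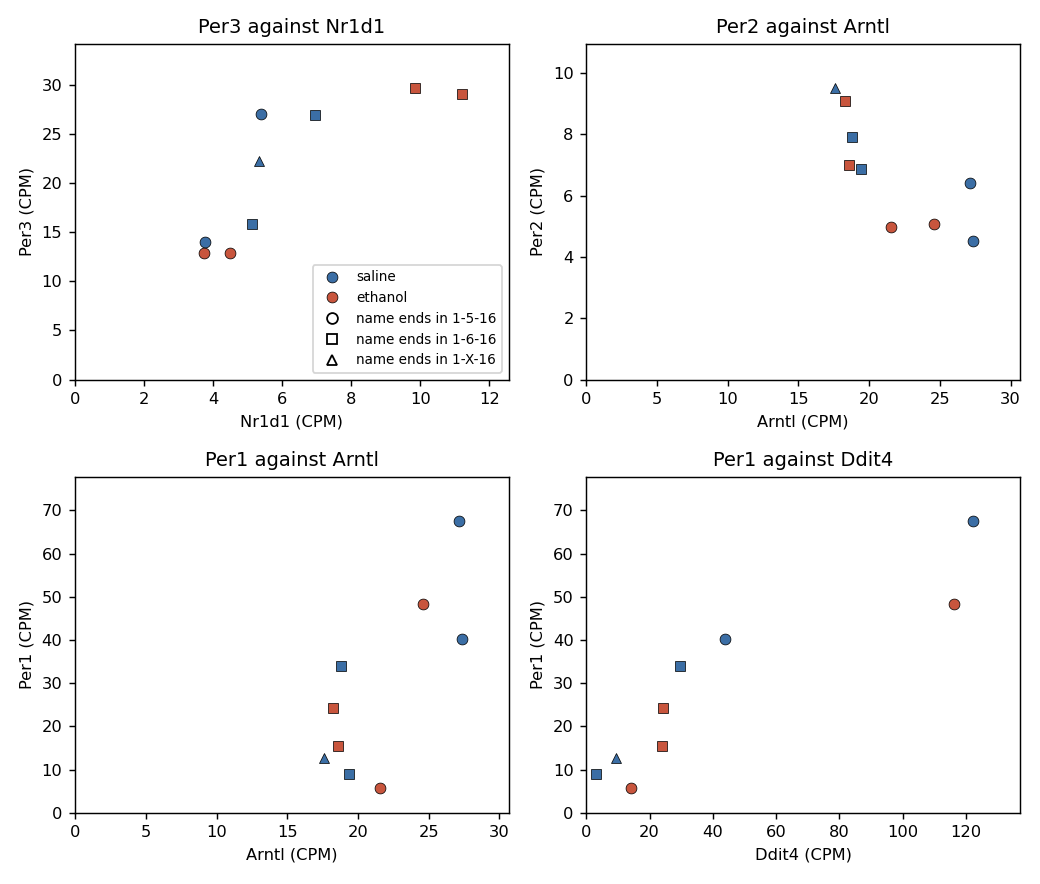
Levels (CPM) of 4 pairs of genes, 1 point for each mouse, with saline in blue, ethanol in red and symbols by library-name ending. Per3 is higher where Nr1d1 is higher, Per2 against Arntl separates by symbol (r 0.07 within endings), and Per1 and Ddit4 share their highest mice, saline 3 and ethanol 1.

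Mice with names ending in 1-6-16 were compared with those ending in 1-5-16, 4 against 4 with 2 of each treatment in both, in edgeR's quasi-likelihood test with treatment as a covariate. Arntl averaged 18.8 ± 0.481 CPM (SD, n = 4) in 1-6-16 and 25.2 ± 2.72 CPM (SD, n = 4) in 1-5-16, with no overlap (log2 fold change -0.42 ± 0.10 SE, unadjusted p = 0.00227 and adjusted p = 0.558 in edgeR). Per2 was 7.71 ± 1.03 against 5.25 ± 0.818 CPM, also with no overlap (0.55 ± 0.19 SE, unadjusted p = 0.0158 and adjusted p = 0.586 in edgeR). Nr1d1 was 8.28 ± 2.76 against 4.34 ± 0.784 CPM (0.87 ± 0.25 SE, unadjusted p = 0.00623 and adjusted p = 0.559 in edgeR), and Cry1 was 13.2 ± 2.83 against 18.7 ± 2.00 CPM (-0.50 ± 0.16 SE, unadjusted p = 0.0125 and adjusted p = 0.586 in edgeR). The direction of Arntl and Cry1 was thus opposite to that of Nr1d1 and Per2.

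By unadjusted p, 4 of the 10 clock genes passed 0.05 (2 higher and 2 lower), against 7.65% of the 13001 genes tested (3.89% higher and 3.75% lower), and 2 of the 10 did not overlap, against 5.39%. By adjusted p 0 of 10 passed, and 0% of all genes in edgeR, while DESeq2 called 50 genes and limma-voom 20, none of them a clock gene. The median size of the difference was 0.46 on the log2 scale over the clock genes and 0.14 over all genes tested. Per3 (0.62 ± 0.31 SE), Dbp (0.32 ± 0.19), Nr1d2 (0.18 ± 0.15), Cry2 (0.13 ± 0.16), Clock (-0.03 ± 0.15) and Per1 (-0.89 ± 0.66) did not pass at unadjusted p (p from 0.0803 to 0.864 in edgeR). Marker sums moved in part with the endings. Neuronal markers (9 listed, 7 tested) summed to 21.2 to 43.1 CPM in 1-6-16 and 15.2 to 23.2 CPM in 1-5-16, and astrocytic markers (9 of 9 tested) to 66.8 to 190 against 64.0 to 104 CPM, with none of either list at 0 in every library. Their part in these differences was not tested.

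Ethanol and saline mice did not differ in any clock gene past the threshold. The largest differences were those of Per1, which had a mean of 32.7 ± 23.6 CPM under saline (SD, n = 5) against 23.5 ± 18.2 CPM under ethanol (SD, n = 4), and of Nr1d1, at 5.31 ± 1.14 and 7.31 ± 3.76 CPM. For Nr1d2 the means were 88.0 ± 11.1 and 105.0 ± 22.2 CPM. The log2 fold change was -0.49 ± 0.65 (SE) for Per1, 0.46 ± 0.32 for Nr1d1 and 0.26 ± 0.14 for Nr1d2 (unadjusted p = 0.468, 0.179 and 0.0988, adjusted p = 0.963 for each in edgeR). With single mice left out, Per1 ranged from -1.11 (without ethanol 1) to -0.04 (without saline 3), Nr1d1 from 0.18 (without ethanol 4) to 0.67 (without ethanol 1), and Nr1d2 from 0.14 (without ethanol 3) to 0.37 (without ethanol 2). Both REV-ERB receptors had values above 0, and the other 8 clock genes values below 0 (49.8% of all genes tested were above 0), from -0.01 for Per3 to -0.49 for Per1.

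In edgeR 0 of the 10 clock genes passed 0.05 by adjusted p (range 0.963 to 0.999) or by unadjusted p, and in none did the treatments separate without overlap. Of all 13067 genes tested, 0% passed adjusted, 2.95% (386 genes) unadjusted, and 1.29% did not overlap. DESeq2 and limma-voom called 0 genes as well, with 435 and 505 at unadjusted p. The median log2 fold change was -0.09 over the clock genes and 0.00 over all genes tested. The 95% interval lay within a 2-fold change for 8 of 10 clock genes and for 79.2% of all genes tested. It was -0.45 to 0.27 for Arntl, -0.42 to 0.24 for Clock, -0.06 to 0.57 for Nr1d2 and -0.54 to 0.34 for Dbp. For Per1 it was -1.94 to 0.96 and for Nr1d1 -0.25 to 1.17, which leaves room for differences of 2-fold or more.

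**Figure D5:**
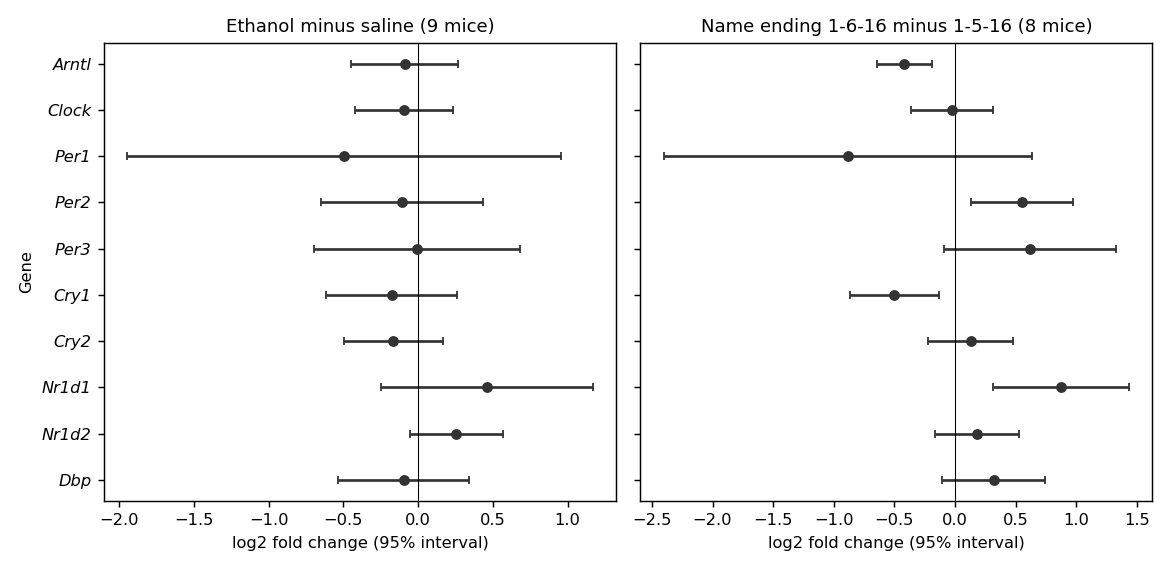
Log2 fold change of each clock gene with its 95% interval, for ethanol against saline (left, 9 mice) and for library-name ending 1-6-16 against 1-5-16 (right, 8 mice). On the left all 10 intervals cross 0, and on the right those of Arntl, Per2, Cry1 and Nr1d1 do not, before adjustment over all genes.

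Age gave no call either. In older against younger mice, with treatment as a covariate, 0 of 10 clock genes passed 0.05 by adjusted or unadjusted p, against 0% and 2.85% (372 genes) of all genes tested in edgeR, and none separated without overlap (1.24% of all genes). DESeq2 and limma-voom also called 0 genes for age. The smallest p-values were those of Nr1d1, at 4.73 CPM in older and 7.38 CPM in younger mice (log2 fold change -0.59 ± 0.29 SE, unadjusted p = 0.0687), and of Cry1, at 18.0 and 14.4 CPM (0.36 ± 0.18 SE, unadjusted p = 0.0710), both with an adjusted p of 0.973 in edgeR.

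For 5 clock genes the ethanol difference itself differed between the age cohorts at unadjusted p, and for none at adjusted p. The interaction of ethanol with age cohort (the ethanol difference in older mice minus that in younger mice) was -1.57 ± 0.38 (SE) on the log2 scale for Per3, -1.37 ± 0.42 for Nr1d1, -0.69 ± 0.21 for Nr1d2, -0.98 ± 0.31 for Dbp and -0.98 ± 0.44 for Per2. Unadjusted p in edgeR was 0.00262, 0.00914, 0.00966, 0.0100 and 0.0497, and the adjusted p was 0.972 for each. These 5 of 10, all negative, stood against 3.24% of all genes unadjusted, 1.91% negative, and 0% adjusted, while DESeq2 called 1 gene, which was not a clock gene. Several of the 5 varied together over the mice (r 0.88 for Per3 with Dbp), so they are not 5 separate results. In younger mice alone (2 ethanol, 3 saline) the ethanol difference was 0.62 ± 0.25 (SE) for Per3, 0.98 ± 0.27 for Nr1d1 and 0.56 ± 0.10 for Nr1d2. In older mice alone (2 against 2) it was -0.94 ± 0.21 for Per3, -0.38 ± 0.33 for Nr1d1 and -0.13 ± 0.21 for Nr1d2. Both sides rest on 2 ethanol mice, the older both ending in 1-5-16 and the younger both in 1-6-16, so among ethanol mice age and library-name ending cannot be told apart. Without ethanol 1, ethanol 2 alone stood for the older ethanol mice, and the interaction of Nr1d2 was then -0.82.

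A wider list of 39 clock regulators, outputs and genes of acute induction was read beside the 10, of which 35 were tested. For ethanol 22 of the 35 had a log2 fold change above 0, 3 passed 0.05 unadjusted, all higher, and 0 passed adjusted in edgeR, with a median of 0.07. Of all genes tested, 49.8% were above 0, 2.95% passed unadjusted and 0% adjusted. The 3 were Cipc, a repressor of CLOCK (30.9 ± 2.14 CPM with saline, 36.02 ± 2.25 CPM with ethanol, unadjusted p = 0.0295), Cdkn1a, the cell-cycle inhibitor p21 (6.25 ± 0.570 and 8.77 ± 0.506 CPM, unadjusted p = 0.00403), and Sgk1, a kinase induced by glucocorticoids (791.6 ± 112 and 977.9 ± 184 CPM, unadjusted p = 0.0429). Their adjusted p was 0.963 in edgeR.

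By role, the partner Npas2, which can stand in for CLOCK, averaged 0.61 CPM. Of the ROR receptors, activators of Arntl, Rora was the highest at 7.55 CPM and Rorb lay at 1.58 CPM. Among D-box factors Tef averaged 112.9 CPM and Hlf 11.9 CPM, with an ethanol log2 fold change of -0.56 ± 0.26 (SE, unadjusted p = 0.0519 in edgeR) for Hlf. The repressor Bhlhe41 (DEC2) averaged 72.6 CPM, and the kinase Csnk1e, which phosphorylates PER proteins, 316.1 CPM. Among ubiquitin ligase subunits that mark PER and CRY for decay, Fbxw11 averaged 202.1 CPM and Btrc 39.9 CPM. The output gene Usp2 averaged 230.6 CPM, and the immediate early genes Junb and Dusp1 241.3 and 19.9 CPM. None of these passed 0.05 for ethanol at unadjusted p.

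Between library-name endings 10 of the 35 passed at unadjusted p, 8 lower and 2 higher in 1-6-16, with 0 past the adjusted threshold in edgeR. Of all genes tested, 7.65% passed at unadjusted p, 3.75% lower and 3.89% higher, and 5.39% did not overlap. Rora was lower without overlap (-0.76 ± 0.15 SE, unadjusted p = 0.000626), Dusp1 likewise (-1.51 ± 0.26 SE, unadjusted p = 0.000320), and Bhlhe41 was higher with overlap (0.48 ± 0.13 SE, unadjusted p = 0.00569), with adjusted p of 0.339, 0.308 and 0.559 in edgeR. Glucocorticoid-induced and immediate early genes had medians of -0.996 and -0.51 over 5 and 6 genes, where all genes tested had a median of 0.02.

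The 35 genes were also set against Per1, Arntl, Dbp and Nr1d1, which gave 140 correlations over the 9 mice. By r 0 passed the adjusted threshold, 20 passed unadjusted, and by rho 1 passed. The share of all genes tested that pass unadjusted with these clock genes was not computed. The count of 20 therefore has no background to be set against. The genes named next were chosen after their values were seen. Ddit4, an inhibitor of mTOR signalling induced by stress and glucocorticoids, stood at 9.47, 2.93, 122.3, 43.9 and 29.5 CPM in saline 1 to 5 and at 116.2, 14.0, 23.8 and 24.2 CPM in ethanol 1 to 4. Its r with Per1 was 0.87 (exact permutation p = 0.00224, adjusted p = 0.179) and its rho 0.95 (exact permutation p = 0.000353, adjusted p = 0.0494). Without ethanol 2 and saline 3, farthest from the median of Per1, r was 0.93, and within endings it was 0.88. Fkbp5, a chaperone of the glucocorticoid receptor, had an r of 0.84 with Per1 (rho 0.90, exact permutation p = 0.00342 for r, adjusted p = 0.179), 0.78 without ethanol 2 and saline 3 and 0.83 within endings. Fkbp5 was about as close to Arntl (r 0.83, rho 0.53, exact permutation p = 0.00896 for r, adjusted p = 0.179), with an r of 0.34 without saline 3 and saline 4 and of 0.86 within endings. The other 3 glucocorticoid-induced genes tested had lower values with Per1 over the 9 mice: r was 0.65 for Tsc22d3, 0.37 for Klf9 and 0.17 for Sgk1. Without ethanol 2 and saline 3 it was 0.93 for Tsc22d3, as high as for Ddit4, 0.25 for Klf9 and 0.60 for Sgk1. Nfil3, the repressor that competes with the protein of Dbp at D-boxes, had an r of -0.85 with Dbp (rho -0.88, exact permutation p = 0.00738 for r, adjusted p = 0.179), -0.75 without ethanol 1 and ethanol 2 and -0.71 within endings. Genes of other roles had values of like size, with an r of 0.86 for the kinase Prkaa1 with Arntl and of 0.81 for Fbxw11 with Per1.

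The genes most like 3 of the clock genes were sought among 8195 named genes with a mean of at least 10 CPM, by Pearson's r of log2(CPM + 1) over the 9 mice. For Per1 these were Tppp (r 0.97), Card6 (0.97), Kcnk6 (0.96), Plekho1 (0.96) and Nrip1 (0.96). For Arntl they were Pnpla2, Fbxl5, Chordc1, Mycl and Dapp1 (r 0.94 each), and for Dbp Gphn (0.93), Inpp4a (0.91), Pura (0.86), Klhl26 (0.86) and Mks1 (0.86). They were the highest of 8195 values from 9 mice and carry no test.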

How the data were processed

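The authors deposited unnormalized read counts per gene symbol, 1 column for each of the 9 libraries. HTSeq 0.6.1, STAR 2.4.2a, Trimmomatic 0.32 and the build GRCm38.p4 are listed in the submitters' processing notes, with settings and strand use not given in the sources used here. Genes were filtered with filterByExpr (minimum count 10, total 15), scaled by TMM over full library totals and tested with edgeR 4.0.16 (R 4.3.3; quasi-likelihood, robust, Benjamini-Hochberg over all genes, threshold 0.05). Ethanol was fitted with no covariate, age with treatment, and their interaction with both. SEs were derived from each fold change with its F statistic.

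The comparison of library-name endings was planned as an alternative to age and given on its own, with its alternatives, after the data were seen. Correlations and levels used log2(CPM + 1) and exact permutation tests (Python 3.11.15, scipy 1.17.1). Lengths and GC content came from GENCODE by symbol (12408 of 13067 genes, 95.0%). Alternatives were limma-voom with sample weights (limma 3.58.1), DESeq2 1.42.0, RLE or plain library totals, a pseudocount of 5, no filter, a minimum of 5 CPM in 4 or more libraries, loess removal of GC and length (span 0.3), covariates, subsets of mice, a replicate block and each library left out. The procedures were tested on simulated data.

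Named genes were the 10 clock genes, from each role group of the wider list the highest by mean CPM and the smallest p for ethanol, and the 5 most like Arntl, Dbp and Per1 (predicted genes, Rik genes and pseudogenes passed over). Ddit4, Fkbp5, Nfil3, Tsc22d3, Klf9 and Prkaa1 fall outside this rule and were named after their values were seen. The genes and lists were chosen with earlier results of these data known.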

Additional observations from a re-analysis of the deposited data

Results flagged for a closer look

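Nr1d2 in saline 3, at 106.9 CPM, lay far above the other 4 saline mice (77.7 to 85.7 CPM). Its gap to the nearest of them was 0.726 of the whole range of the group, above the critical value of 0.710 for 5 samples. Of 20 groups examined (10 clock genes in 2 treatments) it was the only one past this limit, and chance gives about 1 in 20. Saline 3 also had the highest Per1 (67.6 CPM) and the highest Cry2 (23.0 CPM) of all mice.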

How the results depend on the processing

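The ethanol comparison called 0 genes under each of its alternatives. Age called 97 genes with no filter beyond 1 count and 3 without saline 1 and ethanol 2. Endings called 50 (DESeq2), 20 (limma-voom), 261 (no filter), 1 (GC content and length removed) and, leaving out single mice, 0 to 55, the 55 without ethanol 2. The interaction called 1 (DESeq2) and, leaving out single mice, 0 to 848, the 848 without ethanol 1. Pairs of clock genes past the threshold were 2 by rho and 0 to 3 with single mice left out, and Per3 with Nr1d1 passed in 5 of those 9 fits. With no filter Per1, Per3 and Nr1d1 passed for endings (adjusted p = 1.5e-06, 0.0156 and 0.0240 in edgeR). The log2 fold change of Per1 was -0.89 with and without the filter, but its SE was 0.66 with it and 0.15 without it. Levels of all these genes overlapped between the endings, for Per1 with 5.80 to 67.6 CPM in 1-5-16 and 8.96 to 33.9 CPM in 1-6-16. No conclusion is drawn from these calls either. The causes were not tested.

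The labels do not say what the replicate numbers stand for. Ethanol and saline mice of the same number did not deviate together (r from -0.10 to 0.00). The highest r of each ethanol mouse with any saline mouse was itself only 0.09 to 0.26, so this check could not exclude a pairing. With the replicate number as a replicate block, ethanol and age still called 0 genes, and pairs of clock genes 0. Endings called 1237, with Per3, Cry1 and Nr1d1 past the threshold (adjusted p = 0.0155, 0.0282 and 0.0417 in edgeR). Clock had a log2 fold change of 0.22 there. Saline 1 was not in this endings fit, and ethanol 1 and saline 5 had no mouse of the same number in it. The fit thus rested on the pairs numbered 2, 3 and 4. So few pairs cannot decide whether the endings differ, and no conclusion is drawn from these calls.

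Several values changed sign. None of the fold changes listed here had passed at adjusted p over all mice. For ethanol, Per2 was 0.016 and Per3 0.11 in limma-voom, Per2 0.00065 and Per3 0.071 with GC content and length removed, and Per2 0.14, Per3 0.19 and Dbp 0.079 without saline 1 and ethanol 2. With the ending as covariate Per2 was 0.0030. In younger mice alone Per2 was 0.32, Per3 0.62, Cry2 0.054 and Dbp 0.33. In older mice alone Arntl was 0.043, Clock 0.033, Nr1d1 -0.38 and Nr1d2 -0.13. With single mice left out Per2 ranged from -0.31 to 0.023, Per3 from -0.21 to 0.17, Clock from -0.22 to 0.024 and Dbp from -0.25 to 0.025. For age, Clock was 0.039 in limma-voom, Per2 0.17, Clock 0.11 and Dbp 0.068 with GC content and length removed, and Cry2 0.0018, Clock 0.17 and Nr1d2 0.057 without saline 1 and ethanol 2. In saline mice alone Per2 was 0.30, Per3 0.37, Cry2 0.027, Nr1d1 0.012, Nr1d2 0.21 and Dbp 0.35, and with the ending in place of age Clock was 0.026. With single mice left out Per1 ranged from -0.18 to 0.82, Per2 from -0.38 to 0.028, Clock from -0.26 to 0.011, Nr1d2 from -0.25 to 0.030 and Dbp from -0.24 to 0.064. For endings, Cry2 was -0.0083 with GC content and length removed, and Clock ranged from -0.16 to 0.12 with single mice left out. For the interaction Per1 ranged from -2.29 to 1.53 and Clock from -0.21 to 0.54. Within endings r also changed sign for 3 pairs, of which Per2 with Arntl had passed by rho over all mice: r was 0.11 for Per1 with Dbp, 0.071 for Per2 with Arntl and 0.39 for Per3 with Arntl.

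The lowest counts among the clock genes were those of Nr1d1 (47 to 227 per library) and Per2 (64 to 199).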
